A study of Homo sapiens with 30 samples.

Results

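K562 cells carrying mutations at both the S4 and S5 sites of the NOTCH1 locus (S4-S5 mutant) were set against K562 cells mutated at S5 alone (S5 mutant). K562 is a human chronic myeloid leukaemia line, and the series describes the sites as CTCF sites. The comparison holds 12 of the 30 libraries of the series, chosen by their genotype labels: 2 S4-S5 mutant and 2 S5 mutant libraries at each of 3 viewpoints, the NOTCH1 promoter, S2 and S4. Both genotypes carry the S5 mutation, so the labelled difference is the added S4 mutation. No wild-type library enters. The labels do not give the kind of mutation, the position of S5, or whether a genotype is a clone or a pool, so the added mutation and any other difference between the cell lines cannot be told apart. At the S4 viewpoint the mutated site lies at the viewpoint itself in the S4-S5 mutant and is intact in the S5 mutant. Read counts at fragment ends carry no sequence, so the genotypes could not be checked against these data.

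NOTCH1 encodes a receptor that is cleaved when a neighbouring cell presents a ligand, after which its intracellular part enters the nucleus and activates transcription. CTCF is a zinc-finger protein that binds DNA at many domain boundaries, where it can halt the cohesin complex as it extrudes a chromatin loop. Pairs of CTCF sites are often found at the feet of such loops, and a contact assay shows them as places that meet more often than their distance would give. In 4C-seq, cross-linked chromatin is cut and ligated, and the fragments joined to 1 chosen fragment, the viewpoint, are amplified and counted. A read count at a restriction fragment end thus reflects how often that place was ligated to the viewpoint.

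The viewpoints lie on chromosome 9. In hg19 coordinates the promoter viewpoint was centred on 139443268, S2 on 139385872, 57.4 kb on the centromeric side, and S4 on 139523746, 80.5 kb on the telomeric side. S2 and S4 are 137.9 kb apart. In RefSeq's GRCh38.p14 gene order SEC16A and INPP5E are the nearest protein-coding neighbours of NOTCH1 on the centromeric side and EGFL7 and AGPAT2 on the telomeric side. No hg19 annotation was used, so the places below are not assigned to genes, exons or introns. The sequence just before the gene's start is shown because it places the assay's cutter against the promoter that 1 of the viewpoints is named for. It was not matched to the viewpoint fragment. It is the 250 bases before the NOTCH1 start in RefSeq's GRCh38.p14 (chr9:136546049-136546298, minus strand), with matches to CCCTC, the pentamer from which CTCF takes its name, or to its reverse complement GAGGG in capitals.
NOTCH1 promoter: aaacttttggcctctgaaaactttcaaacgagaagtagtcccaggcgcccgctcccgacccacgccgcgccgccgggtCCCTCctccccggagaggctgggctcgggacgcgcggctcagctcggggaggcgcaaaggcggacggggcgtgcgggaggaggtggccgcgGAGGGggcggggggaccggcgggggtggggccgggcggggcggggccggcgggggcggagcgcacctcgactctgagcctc
The stretch is 76% G and C. It holds 2 matches to CCCTC counting both strands. Of 35116 RefSeq promoters of this length, 66.6% hold at least 1 match. It holds 0 matches to GATC, the site of DpnII, the first cutter of the assay, which 35.8% of those promoters contain. These are matches of letters and not binding sites. No file used here holds the sequences of S2, S4 or S5.

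The 12 libraries held 4528931 to 8008761 reads on chromosome 9. Reads within 5 kb of the viewpoint were left out, where fragments that were never cut or that closed on themselves prevail, and those from 5 to 500 kb away were called near-cis. The masked share was lower in the S4-S5 mutant at each viewpoint: 88.6 and 88.1% against 96.0 and 96.2% in the S5 mutant at the promoter, 61.9 and 61.3% against 72.0 and 71.6% at S2, and 57.3 and 56.8% against 73.4 and 73.4% at S4. Near-cis depth therefore differed most at the promoter, with 428041 and 616261 reads in the S4-S5 mutant against 176322 and 175946 in the S5 mutant. At S2 it was 1700884 and 2691302 reads against 1664353 and 1589770, and at S4 1765276 and 2595759 against 1269845 and 1385317. Reads carry no molecular identifiers and are not independent ligation events. The labels do not say whether the 2 libraries of a genotype stem from separate cultures. Every p-value given here therefore measures only how far these libraries differ, which may be a technical spread. With 2 libraries against 2, an exact two-sided permutation test of a single value cannot give a p below 0.333.

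Single fragment ends show how much of the signal the libraries share. The correlation of log2(reads + 1) over near-cis ends was r = 0.985 to 0.994 between the 2 libraries of a genotype and 0.634 to 0.716 between the genotypes (across ends, which are not independent replicates and share a library). Of the near-cis ends with at least 20 reads in the first S4-S5 mutant library, 99.1 to 99.9% had as many in the second. Of those with at least 20 reads in both S4-S5 mutant libraries, 46.9% for the promoter, 46.6% for S2 and 57.0% for S4 reached 20 reads in both S5 mutant libraries. Of the corresponding S5 mutant ends, 79.9, 76.7 and 75.7% reached 20 reads in both S4-S5 mutant libraries. Beyond 500 kb those shares were 2.22 to 4.33% of the S4-S5 mutant's ends and 6.67 to 9.23% of the S5 mutant's. Within a genotype, ends beyond 500 kb with at least 20 reads in the first library mostly had as many in the second. That held for 98.8 to 100% of them in the S4-S5 mutant and 95.3 to 99.5% in the S5 mutant. Whether the 2 libraries of a genotype share their ligated DNA was not tested. The limit of 20 reads is on raw counts. At each viewpoint the second S4-S5 mutant library was deeper than the first, and the S5 mutant libraries were shallower than both. These shares are therefore not at equal depth. At this limit the replicates held nearly the same ends, while the genotypes shared part of them near the viewpoint and few beyond 500 kb. How much of this is captured ligation events and how much is genotype was not tested. A region that sums many ends rests less on any one of them than a 10-kb bin does, so regions are given first.

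**Figure D1:**
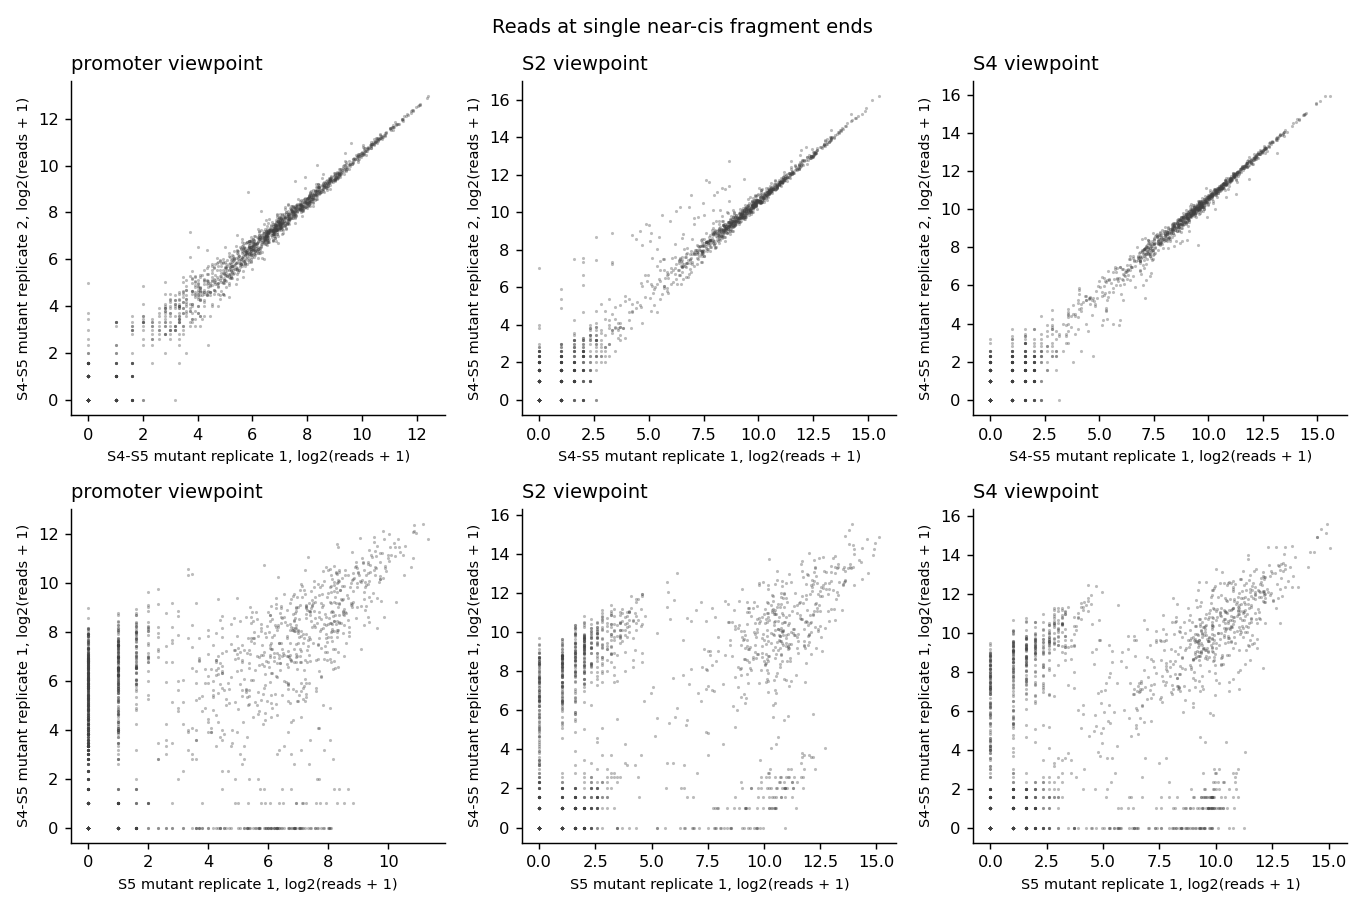
Reads at single near-cis fragment ends, as log2(reads + 1) on both axes, for each viewpoint; each point is 1 end. Top row, S4-S5 mutant replicate 2 against replicate 1; the points follow the diagonal (r = 0.990 to 0.994). Bottom row, S4-S5 mutant replicate 1 against S5 mutant replicate 1; many ends are well covered on 1 axis and near 0 on the other.

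From the promoter, the S4-S5 mutant had fewer contacts with S2 and more with the stretch between the promoter and S4. Near-cis reads were summed in 9 regions bounded by the study's own sites, and the share of each region was compared with edgeR's quasi-likelihood F test (two-sided, Benjamini-Hochberg adjusted over the 9 regions, threshold 0.05). Of the 9, 7 passed (77.8%), 4 of them higher (44.4%) and 3 lower (33.3%), and 0 differed by 2-fold or more.

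The 20 kb around S2 (chr9:139375872-139395871) took 5.66 and 5.71% of near-cis reads in the S4-S5 mutant, against 8.24 and 8.25% in the S5 mutant. The groups did not overlap, and the log2 fold change was -0.54 (SE 0.01, edgeR adjusted p = 3.2e-05). This was the largest difference among the regions seen from the promoter. It stayed between -0.62 and -0.40 under the alternatives based on reads. The share of S2 was 5.47% ± 0.0234 in the S4 mutant and 5.71% ± 0.0518 in the S2 mutant (SD, n = 2 each), so that of the 4 mutants the S5 mutant stood apart and the S4-S5 mutant lay close to the other two. Covered ends at equal depth are ends with at least 1 read after every library was brought to the lowest near-cis depth. Counted that way, as a share of all covered near-cis ends, the difference was -0.29 and did not pass (edgeR adjusted p = 0.309). From the promoter the S4-S5 mutant covered more near-cis ends at equal depth (49.2 and 49.2% against 41.2 and 41.1%). A region covered almost fully in both genotypes then falls below 0 whatever its contacts. Around S2, 47 and 48 of 54 ends were covered at full depth, so this value cannot show a direction.

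Between the promoter and S4 (chr9:139453268-139513745) the shares were 33.2 and 33.1% in the S4-S5 mutant, against 29.2 and 29.3% in the S5 mutant. The log2 fold change was 0.18 (SE 0.00312, edgeR adjusted p = 3.2e-05), and it lay between 0.10 and 0.21 under the alternatives based on reads. In covered ends the value was -0.23 (edgeR adjusted p = 0.296). At full depth 171 of the 176 ends of this stretch were covered in the S4-S5 mutant and 168 in the S5 mutant. As for S2, the covered-end value therefore cannot show a direction.

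The 20 kb around S4, the site whose mutation was added, differed little. It took 6.04 and 6.02% in the S4-S5 mutant, against 5.77 and 5.76% in the S5 mutant. The groups did not overlap and the test was passed (log2 0.06, edgeR adjusted p = 0.00763), but the sign turned with TMM factors (-0.02), with DESeq2 (-0.01), with anchor windows of 5 or 20 kb on each side (-0.08 and -0.03) and in covered ends (-0.12). Past S4, the telomeric flank (10 to 100 kb beyond S4) was lower, at 9.49 and 9.51% in the S4-S5 mutant against 10.7 and 10.6% in the S5 mutant (log2 -0.16, edgeR adjusted p = 4.79e-05). The flank stayed below 0 under every alternative run. Its value in covered ends was -0.04 and did not pass (edgeR adjusted p = 0.726). At full depth 236 of the flank's 287 ends were covered in the S4-S5 mutant and 213 in the S5 mutant. Around S4 these were 68 and 64 of 70, so the limit of covered ends given for S2 holds for the S4 region.

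Of the remaining regions seen from the promoter, the far centromeric one, more than 100 kb beyond S2, was higher at 5.19 and 5.22% in the S4-S5 mutant against 4.64 and 4.59% in the S5 mutant (log2 0.17, edgeR adjusted p = 0.00111). This difference was 0.09 on non-blind ends and with TMM factors and 0.10 with DESeq2, all past the test. It did not pass within 250 kb, which keeps only the nearest part of the region (0.01, edgeR adjusted p = 0.686), in covered ends (0.14), or when either S5 mutant library was left out. The far telomeric one was lower at 5.40 and 5.27% against 5.98 and 5.96% (-0.16, edgeR adjusted p = 0.00488), and its sign turned within 1 Mb (0.04), in covered ends (0.16) and with only non-blind ends (0.02). The flank of S2 on its centromeric side and the stretch from S2 to the promoter did not pass (-0.05 and -0.06, edgeR adjusted p = 0.0708 and 0.258). The 20 kb around the viewpoint differed by 0.03, a value that turned with TMM factors (-0.05), DESeq2 (-0.05) and chromosome 9 scaling (-0.02). Leaving out either S5 mutant library lowered the number of regions past the test to 3, and leaving out either S4-S5 mutant library raised it to 9. Along with these shares, the masked share and the depth moved at this viewpoint, and the S4-S5 mutant covered more near-cis ends at equal depth (49.2 and 49.2% against 41.2 and 41.1%). Their part in the differences was not tested.

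**Figure D2:**
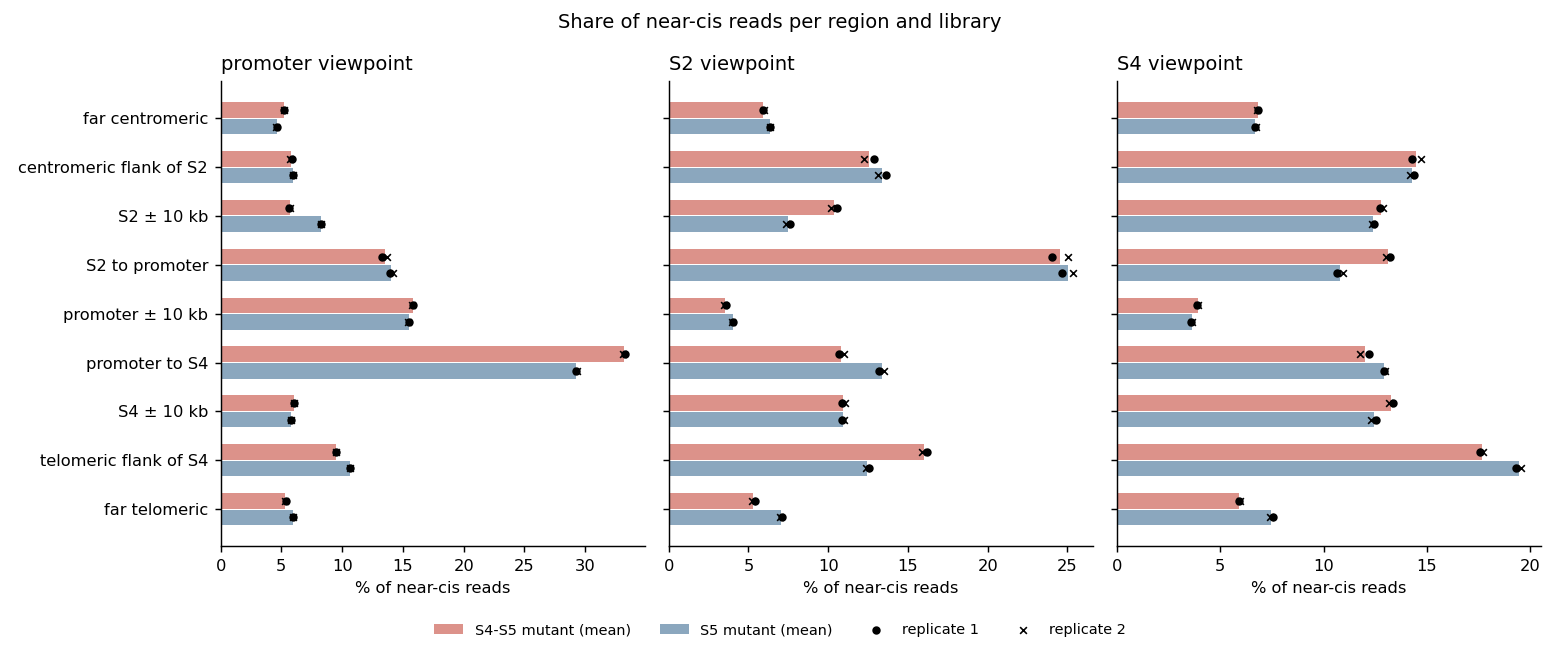
Share of near-cis reads (%) in 9 regions for the promoter, S2 and S4 viewpoints; bars are means of 2 libraries, S4-S5 mutant above S5 mutant, and black symbols the single libraries. From the promoter, S2 ± 10 kb held 5.69% in the S4-S5 mutant against 8.25% in the S5 mutant; from S2, the telomeric flank of S4 held 16.0% against 12.4%; from S4, the stretch from S2 to the promoter held 13.1% against 10.8%.

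From S2, contact with S4 itself did not pass the test, while the stretch before S4 was lower and the stretch past S4 higher in the S4-S5 mutant. Of the 9 regions 7 passed the test (77.8%), 2 higher (22.2%) and 5 lower (55.6%). The 20 kb around S4 (chr9:139513746-139533745) took 10.9 and 11.0% in the S4-S5 mutant, against 10.9 and 11.0% in the S5 mutant, with overlapping groups and a log2 fold change of 0.00 (SE 0.03, edgeR adjusted p = 0.864). Its alternatives ran from -0.15 on non-blind ends to 0.12 with a 20-kb mask. Of 18 alternatives 5 passed with a value above 0, and the value on non-blind ends passed below 0. The direction of this contact therefore depended on the processing.

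The telomeric flank of S4 (chr9:139533746-139623745) took 16.2 and 15.9% of near-cis reads in the S4-S5 mutant, against 12.5 and 12.3% in the S5 mutant. The log2 fold change was 0.37 (SE 0.03, edgeR adjusted p = 5.81e-10), the range over alternatives based on reads was 0.24 to 0.48, and covered ends gave 0.05 (edgeR adjusted p = 0.944). The S4 mutant had 11.3% there and the S2 mutant 7.41%. The flank's most covered end held 3.85% of its reads in the S4-S5 mutant and 5.87% in the S5 mutant.

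The stretch from the promoter to S4 went the other way, with 10.7 and 11.0% in the S4-S5 mutant against 13.2 and 13.5% in the S5 mutant (log2 -0.30, SE 0.03, edgeR adjusted p = 8.12e-09; -0.45 to -0.19 under alternatives based on reads, 0.02 in covered ends). The far telomeric region was lower too, at 5.29% ± 0.131 against 7.03% ± 0.121 (SD, n = 2; log2 -0.41, edgeR adjusted p = 1.47e-10; -0.57 to -0.24, and -0.01 in covered ends). The promoter's own 20 kb took 3.58 and 3.45% in the S4-S5 mutant against 4.05 and 3.97% in the S5 mutant (-0.19, SE 0.03, edgeR adjusted p = 6.26e-06). That difference rested on few ends: without the most covered ends it was -0.00, and in covered ends 0.06.

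Within 10 kb of the S2 viewpoint, outside the mask, the share was 10.6 and 10.2% in the S4-S5 mutant against 7.58 and 7.38% in the S5 mutant (log2 0.47, edgeR adjusted p = 2.85e-11). This window holds 32 ends, of which the most covered took 26.8% of its reads in the S4-S5 mutant and 28.2% in the S5 mutant. On non-blind ends alone, fragment ends on fragments that the second enzyme also cuts, the difference was -0.01. Between S2 and the promoter the groups overlapped (-0.03, edgeR adjusted p = 0.394). The far centromeric region and the centromeric flank of S2 were slightly lower (-0.10 and -0.09, edgeR adjusted p = 0.00422 and 0.00602), and the far centromeric one turned under a 20-kb mask (0.01) and within 1 Mb (0.11). At this viewpoint the covered share of near-cis ends at equal depth was 42.0 and 42.1% in the S4-S5 mutant against 42.0 and 42.2% in the S5 mutant.

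From S4, whose site is mutated in the S4-S5 mutant, contacts between S2 and the promoter were higher and those in the far telomeric region lower. Of the 9 regions 7 passed (77.8%), 4 higher (44.4%) and 3 lower (33.3%). The stretch from S2 to the promoter (chr9:139395872-139433267) took 13.2 and 13.0% in the S4-S5 mutant, against 10.6 and 10.9% in the S5 mutant. The log2 fold change was 0.28 (SE 0.02, edgeR adjusted p = 1.11e-11), between 0.17 and 0.43 under the alternatives based on reads and 0.05 in covered ends. The S4 mutant and the S2 mutant had 8.14 and 8.09% there.

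The far telomeric region, more than 100 kb past S4, took 5.90 and 5.95% in the S4-S5 mutant, against 7.55 and 7.41% in the S5 mutant (log2 -0.33, SE 0.02, edgeR adjusted p = 1.78e-12; -0.52 to -0.19, and -0.03 in covered ends). The telomeric flank of S4 was also lower, at 17.6 and 17.7% against 19.3 and 19.5% (-0.14, edgeR adjusted p = 6.13e-07). The balance of the 2 sides moved with them: the log2 ratio of telomeric to centromeric near-cis reads was -1.43 and -1.41 in the S4-S5 mutant against -1.19 and -1.19 in the S5 mutant.

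The 20 kb around S2 (chr9:139375872-139395871) took 12.7 and 12.9% of the S4 viewpoint's near-cis reads in the S4-S5 mutant, against 12.4 and 12.3% in the S5 mutant (log2 0.05, SE 0.02, edgeR adjusted p = 0.0145). The size of this difference depended on single ends. Its alternatives ran from 0.02 to 0.50, with 0.26 when ends were capped, 0.39 without the most covered ends and 0.50 on non-blind ends, and covered ends gave 0.08 (edgeR adjusted p = 0.991). All 18 alternatives lay above 0, but only 9 of them passed. The promoter's 20 kb took 3.89 and 3.94% in the S4-S5 mutant against 3.58 and 3.66% in the S5 mutant (0.11, edgeR adjusted p = 9.51e-06; -0.02 without the most covered ends). The stretch from the promoter to S4 was lower, at 12.2 and 11.8% against 12.9 and 12.9% (-0.11, edgeR adjusted p = 9.51e-06; 0.09 in covered ends). It was lower from S2 too (-0.30) but higher from the promoter (0.18). The 20 kb around S4, outside the mask, took 13.4 and 13.2% against 12.5 and 12.3% (0.10, edgeR adjusted p = 4.12e-05; -0.04 with 20-kb anchor windows). The far centromeric region did not pass (0.02, edgeR adjusted p = 0.193), with 6.82% ± 0.0317 in the S4-S5 mutant against 6.70% ± 0.0363 in the S5 mutant, while the S4 and S2 mutants had 13.2 and 15.7% (SD, n = 2).

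**Figure D3:**
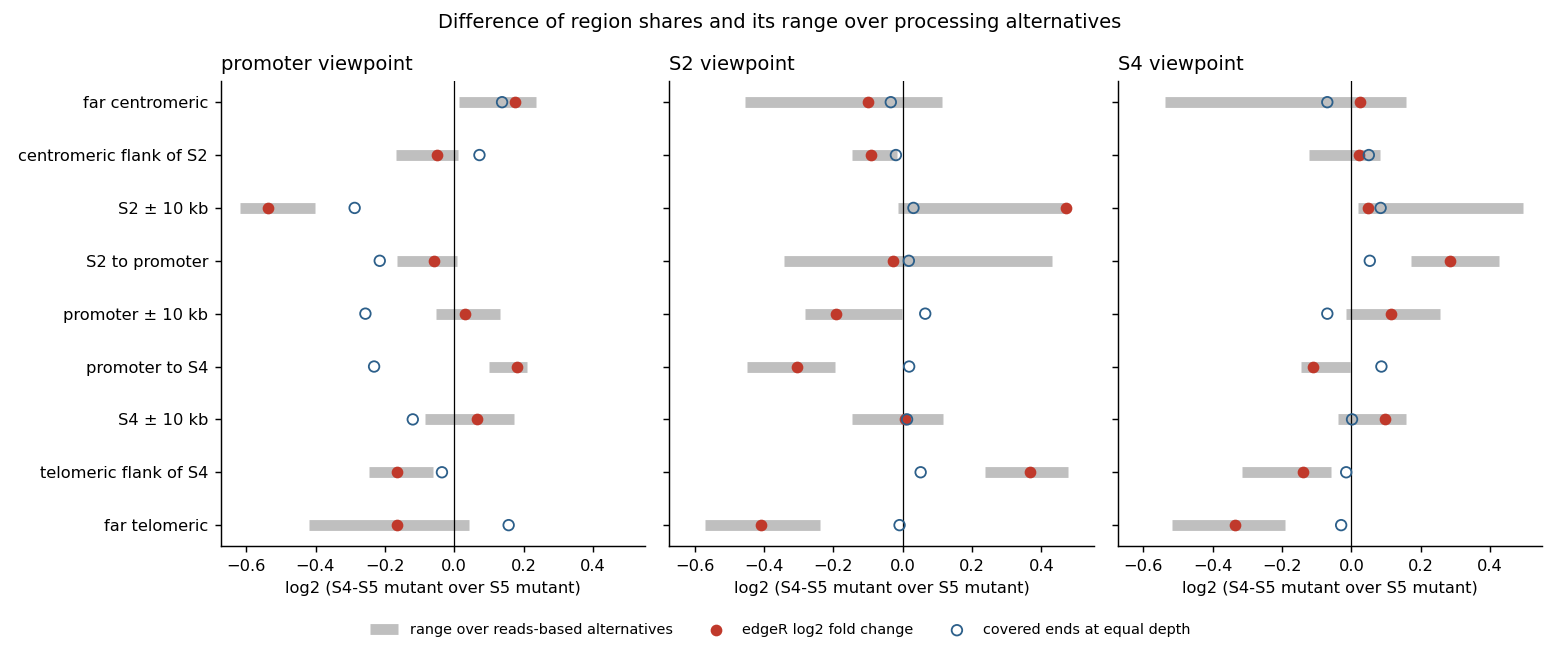
Log2 fold change of each region's share, S4-S5 mutant over S5 mutant, at the 3 viewpoints; filled points are the edgeR estimates, grey bars the range over alternatives based on reads, and open circles the value in covered ends at equal depth. From the promoter, S2 ± 10 kb lies at -0.54 with a bar from -0.62 to -0.40 and a circle at -0.29; from S2 and S4 the open circles lie between -0.07 and 0.09.

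Each pair of sites was seen from both of its ends. Between S2 and S4 the log2 fold changes were 0.00 from S2, which did not pass, and 0.05 from S4, which did. The second passed in only 9 of 18 alternatives. It depended on single ends, with 0.26 for capped ends, 0.39 without the most covered ends and 0.50 for non-blind ends. In single 10-kb bins the value was 0.05 for the bin holding S4 (chr9:139520001-139530000) seen from S2 (edgeR adjusted p = 0.219 over the bins of that viewpoint). It was -0.01 for the bin holding S2 (chr9:139380001-139390000) seen from S4 (edgeR adjusted p = 0.627), and 0.27, 0.44 and 0.47 under those same 3 settings. That bin took 10.1 and 10.2% of reads in the S4-S5 mutant against 10.2 and 10.2% in the S5 mutant, and it was the highest bin beyond 50 kb of the S4 viewpoint in the S5 mutant. The promoter and S2 met less in the S4-S5 mutant from both ends, by -0.54 seen from the promoter and -0.19 seen from S2, the second value resting on few ends as given above. The promoter and S4 differed by 0.06 and 0.11 over 20 kb, and by -0.12 and 0.02 in single bins, so seen from the promoter the direction turned with the size of the window.

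Over all 27 region shares of the 3 viewpoints, the S5 mutant was the nearest of the 3 other mutants to the S4-S5 mutant in 14, the S4 mutant in 5 and the S2 mutant in 8. The median absolute log2 difference was 0.11 to the S5 mutant, 0.26 to the S4 mutant and 0.25 to the S2 mutant. These comparisons share the S4-S5 mutant libraries and are given as a description. They differ between viewpoints. At the promoter the S5 mutant was nearest in 4 of 9 regions, and the median difference was smaller to the S2 mutant (0.12) than to the S5 mutant (0.16) or the S4 mutant (0.21). At S2 and S4 the S5 mutant was nearest in 5 of 9 regions each, with medians of 0.19 and 0.11.

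In 10-kb bins of a fixed grid, most of the near-cis window differed beyond the spread of the replicates, in both directions. At the promoter 82 of 95 bins passed edgeR's test (86.3%), 44 higher (46.3%) and 38 lower (40%), and 27 of them differed at least 2-fold (28.4%). At S2 86 of 95 passed (90.5%), 44 higher (46.3%) and 42 lower (44.2%), with 39 at least 2-fold (41.1%). At S4 86 of 96 passed (89.6%), 42 higher (43.8%) and 44 lower (45.8%), with 26 at least 2-fold (27.1%). When covered ends at equal depth were tested in place of reads, edgeR called 0 bins at each viewpoint (3, 0 and 1 at an unadjusted p under 0.05). No other tool was run on them. A bin holds few ends, and well-filled bins have nearly all of them covered in both genotypes. From the promoter, the bin from 139500001 had 36 and 34 of 36 ends covered, and that holding S2 23 and 23 of 23. The 0 calls therefore do not show that contacts were alike. The same test between the other pairs of mutants called similar numbers, 82 to 92 bins a viewpoint. At least 2-fold apart at the promoter, S2 and S4 were 19, 31 and 30 bins between the S4-S5 and S4 mutants. Between the S5 and S4 mutants these were 34, 46 and 33 bins. Pairs that include the S2 mutant had 51 to 69 such bins.

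The large fold changes lay where contacts were sparse. Bins 250 to 500 kb away held 23 of the 27 changes of at least 2-fold at the promoter, 32 of 39 at S2 and 20 of 26 at S4. They made up 47 of the 95 bins tested at the promoter, 50 of 95 at S2 and 46 of 96 at S4. Those distances held 6.34, 6.86 and 8.53% of near-cis reads in the S4-S5 mutant for the promoter, S2 and S4 (5.72, 7.55 and 9.07% in the S5 mutant). Within 50 kb, 0 of 10 bins at the promoter, 0 of 9 at S2 and 0 of 10 at S4 were 2-fold apart. Of the bins that held at least 1% of reads in the higher genotype, 0 of 24 at the promoter, 1 of 29 at S2 and 0 of 31 at S4 were 2-fold apart. The median absolute log2 fold change of these well-filled bins was 0.27, 0.26 and 0.25.

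**Figure D4:**
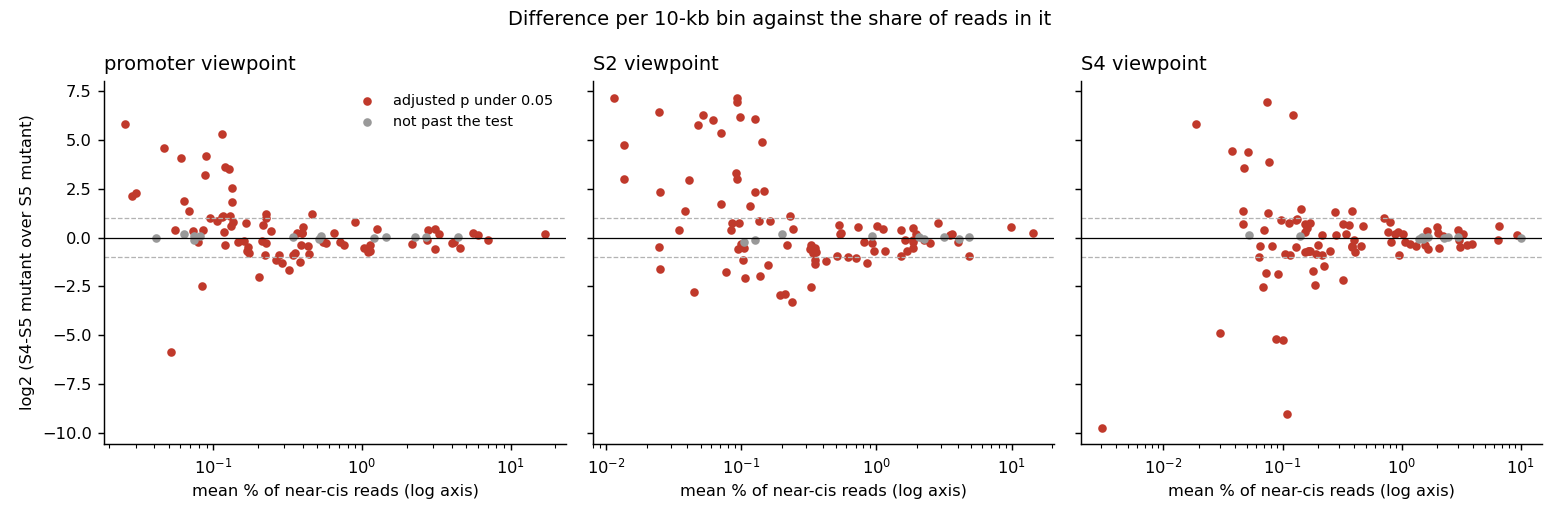
Log2 fold change of each 10-kb bin, S4-S5 mutant over S5 mutant, against the mean share of near-cis reads in the bin (%, log axis); red bins passed the test and dashed lines mark 2-fold. Bins above 1% lie within the dashed lines, some near them (from S2, -0.92 for the bins from 139410001 and 139470001). Those changed most hold around 0.1% or less.

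Among the well-filled bins, those next to S2 stood out from the promoter. The bin holding S2 (chr9:139380001-139390000) took 3.78 and 3.80% in the S4-S5 mutant, against 5.35 and 5.40% in the S5 mutant (log2 -0.51, SE 0.02, edgeR adjusted p = 2.27e-67). The next bin towards the promoter was lower as well, with 2.44 and 2.49% against 3.71 and 3.69% (-0.59). The bin on its centromeric side (chr9:139370001-139380000) was higher, with 1.17 and 1.12% against 0.655 and 0.660% (0.80, SE 0.04, edgeR adjusted p = 5.18e-42), and the one beyond that, from 139360001, was lower again, with 0.880 and 0.862% against 1.40 and 1.40% (-0.69, edgeR adjusted p = 8.69e-42). Past S4, the bin from 139580001 had 1.46 and 1.46% in the S4-S5 mutant against 1.05 and 1.07% in the S5 mutant (0.47), and the next one, from 139590001, 0.840 and 0.829% against 1.37 and 1.38% (-0.72). The bin 61.7 kb telomeric of the promoter, from 139500001, averaged 6.07% ± 0.0312 against 5.11% ± 0.0587 (SD, n = 2; log2 0.25, edgeR adjusted p = 1.96e-34).

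From S2, the bin from 139590001 was instead higher in the S4-S5 mutant, with 3.67 and 3.48% against 2.19 and 2.13% in the S5 mutant (log2 0.73, SE 0.05, edgeR adjusted p = 2.12e-35), and the next one, from 139600001, with 1.27 and 1.18% against 0.812 and 0.782% (0.62). The bin from 139330001, on the centromeric side of S2, was the well-filled bin that differed most, with 0.501 and 0.487% in the S4-S5 mutant against 1.22 and 1.20% in the S5 mutant (-1.29, SE 0.06, edgeR adjusted p = 1.92e-50). Bins from 139410001 and 139470001, on the promoter side, were lower by log2 -0.92 and -0.92. In covered ends both turned to values above 0 that did not pass (0.09 and 0.04).

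From S4, the bin from 139400001, between S2 and the promoter, took 7.92 and 7.77% in the S4-S5 mutant against 5.13 and 5.36% in the S5 mutant (log2 0.58, SE 0.02, edgeR adjusted p = 1.03e-62). Both neighbours of the bin holding S2 were higher, the centromeric one by 0.41 and the telomeric one by 0.25, while the bin itself did not pass (-0.01, with the dependence on single ends given above). The bin from 139640001, 121.3 kb telomeric, was lower, with means of 0.674% against 1.24% (-0.88, SE 0.04, edgeR adjusted p = 2.39e-55). The bin from 139470001 was lower from S4 (-0.60) and from S2 (-0.92), and its value in covered ends was above 0 from both (0.07 and 0.04).

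**Figure D5:**
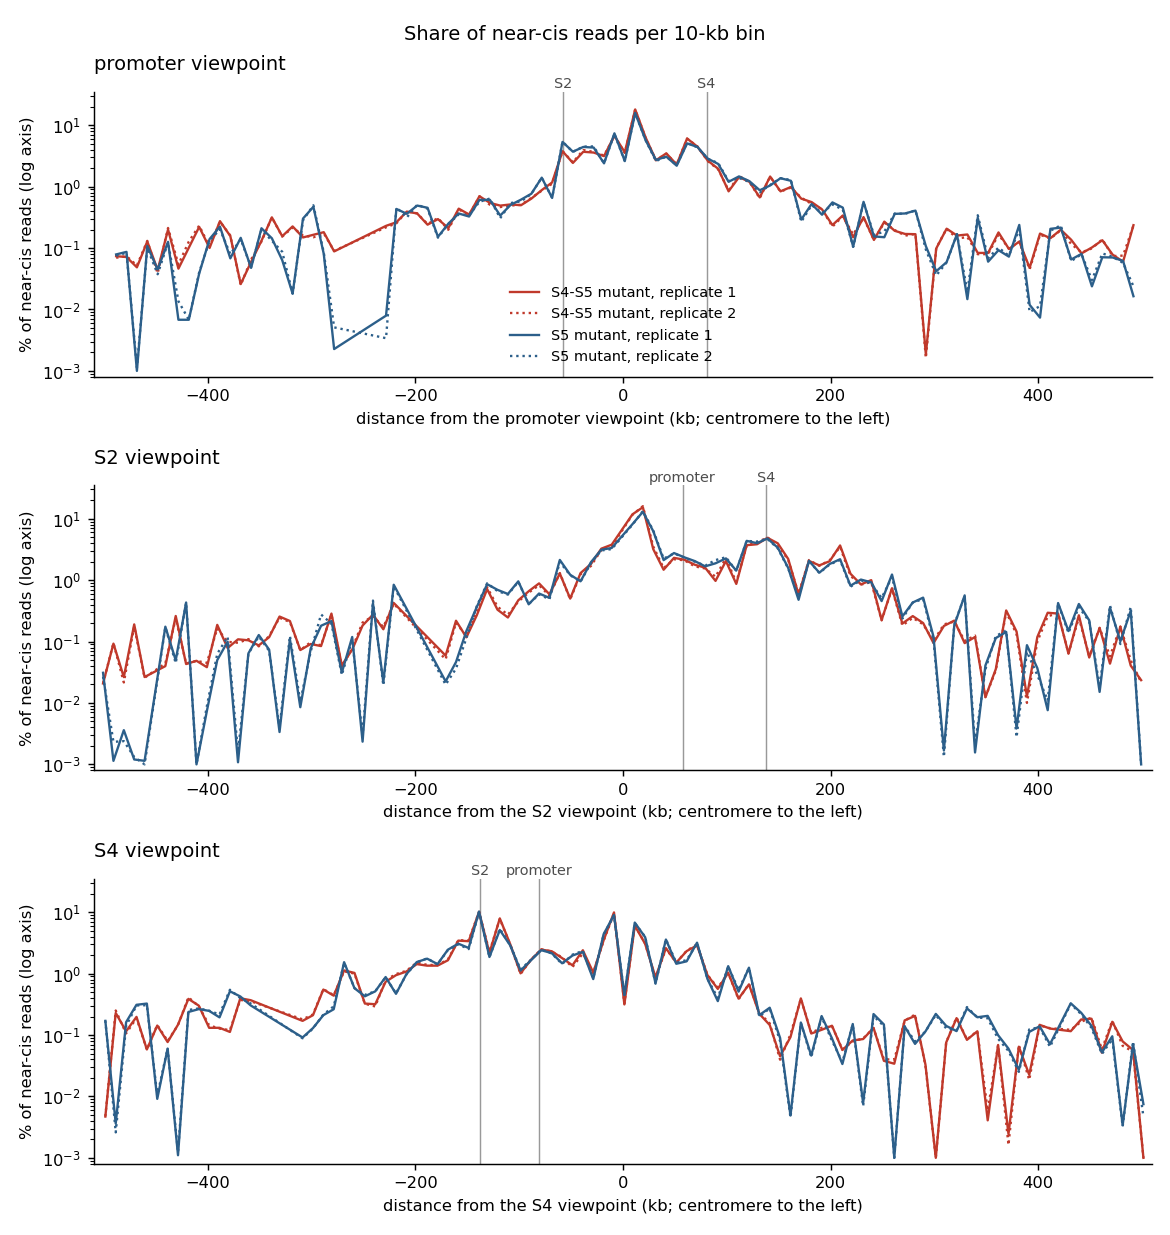
Share of near-cis reads per 10-kb bin (%, log axis, values under 0.001% drawn at 0.001%) against distance from the viewpoint (kb) for the promoter, S2 and S4 viewpoints; red, S4-S5 mutant, and blue, S5 mutant, with solid and dotted lines for replicates 1 and 2, and grey lines for the other viewpoints. The replicates overlie each other, and the genotypes part mostly beyond 200 kb, where single bins drop to near 0 in 1 genotype.

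The most changed bins of all held few reads in 1 genotype. From the promoter, the bin from 139210001 had 0.230 and 0.218% in the S4-S5 mutant against 0.00794 and 0.00341% in the S5 mutant (log2 5.29). From S2, the bin from 138910001 had 0.190 and 0.176% against 0.00120 and 0.00132% (7.18). From S4, the bin from 139820001 had 0.000453 and 0.000385% against 0.221 and 0.213% (-9.01). A bin at the window's edge, from 140020001, had 0 and 0 reads in the S4-S5 mutant against 95 and 65 in the S5 mutant, at least 87.6-fold lower taking 3 reads over the pair of libraries as the floor. Such bins often rest on 1 end: from S2, the bin from 139880001 was higher by log2 7.14, and 99.8% of its reads in the S4-S5 mutant lay at a single end. Its value in covered ends was -0.39.

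The reach of the contacts differed as well. Of the reads outside the mask, the near-cis share was 82.6 and 82.9% in the S4-S5 mutant against 85.5 and 85.7% in the S5 mutant at the promoter, 86.2 and 86.8% against 87.8 and 88.2% at S2, and 88.2 and 88.0% against 89.7 and 89.9% at S4. The groups did not overlap at any viewpoint. From 1 to 5 Mb the share was 5.09 and 4.95% against 3.32 and 3.22% at the promoter and 4.51 and 4.28% against 3.02 and 2.93% at S2. At S4 it was 3.36 and 3.41% against 3.08 and 3.07%. Beyond 20 Mb the order was the other way, with 2.20 and 2.13% against 2.56 and 2.48% at the promoter, 1.22 and 1.14% against 1.91 and 1.84% at S2, and 1.02 and 1.04% against 1.40 and 1.38% at S4. In 1-Mb windows beyond 500 kb, 64 of 79 passed edgeR's test at the promoter (81%), 54 of 56 at S2 (96.4%) and 63 of 67 at S4 (94%), on ends that the genotypes mostly do not share.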

How the data were processed

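Chromatin contacts were measured by 4C-seq in K562. Per the labels' protocols, cells were fixed in 2% formaldehyde for 10 min and cut with DpnII in 3 rounds, and NlaIII or CviQI served as second cutter between a pair of ligations. A first PCR of 16 cycles took 200 ng. Per the file headers, the authors deposited unscaled read counts per fragment end of chromosome 9. The signal columns, which the authors deposited as scaled counts and their running mean per the file headers, were not used. The submitters' processing notes name hg19 and deepTools. Steps not given in the sources used here include alignment and counting.

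Counts were summed in bins, regions and 1-Mb windows beyond 500 kb, and the 4 libraries of a viewpoint were fitted with edgeR 4.0.16 (R 4.3.3). Library size was the near-cis total for bins and regions, and the total beyond 500 kb for the 1-Mb windows. Bins and windows with a mean under 10 reads were left out. DESeq2 1.42.0, TMM factors, chromosome 9 totals, other bins, masks and windows, non-blind or capped ends, covered ends and each library left out were alternatives. Leaving out the most covered ends was added later. The fit of 10-kb bins was tested on simulated data. The bins named hold or adjoin a viewpoint, have the largest changes (in any bin, or at 1% of reads or more), or were highest in the S5 mutant. The comparison, regions and rules were chosen with earlier results of these data known. Same-numbered libraries of the genotypes deviated together only weakly in 10-kb bins (r = 0.17, 0.17 and 0.05 at the promoter, S2 and S4), and the labels do not say that a number marks a shared batch.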

Additional observations from a re-analysis of the deposited data

How the results depend on the processing

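The number of 10-kb bins past the test at the promoter, S2 and S4 was 163, 155 and 164 with 5-kb bins, 45, 46 and 45 with 20-kb bins, 43, 40 and 43 within 250 kb and 166, 174 and 172 within 1 Mb, where the number of bins tested changes too, and 0, 0 and 0 in covered ends. In covered ends 0 regions passed at each viewpoint as well (1, 0 and 0 at an unadjusted p under 0.05). The limit of near-full coverage given above holds for well-filled bins and some regions, and a bin holds few ends. These counts of 0 therefore do not show like contacts. With 5-kb anchor windows 3 regions passed at S4. With 500-kb windows beyond 500 kb, 119, 82 and 96 passed. Leaving out single libraries gave 76 to 84 bins at the promoter, 80 to 84 at S2 and 83 to 87 at S4, 3 to 9, 5 to 7 and 6 to 7 regions, and 55 to 64, 51 to 53 and 60 to 63 1-Mb windows. The lone library left in a genotype is then assumed to vary like the other pair. With the replicate number as a block, 81, 90 and 86 bins, 8, 8 and 7 regions and 61, 53 and 65 1-Mb windows passed. The split of regions into higher and lower at the promoter was 2 and 5 with TMM factors, 2 and 6 with DESeq2 and 3 and 5 scaled to chromosome 9, in place of 4 and 3, and at S4 6 and 2 with TMM factors.

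Of 1497 values of single bins, regions and windows under an alternative, 88 no longer passed, 46 newly passed and 59 changed sign where the value or its alternative was past the threshold. The other 1304 stayed on their side of the threshold, and 32 of them changed sign while neither value passed. The cause was not tested. The 59 are given as log2 fold changes. At the promoter viewpoint, the S4 region became -0.017 with TMM factors, -0.012 with DESeq2, -0.084 and -0.026 with 5-kb and 20-kb anchor windows and -0.12 in covered ends. The promoter region became -0.052 with TMM factors, -0.047 with DESeq2, -0.018 scaled to chromosome 9 and -0.26 in covered ends, the far telomeric region 0.043 within 1 Mb, 0.16 in covered ends and 0.016 with non-blind ends only, and the stretch to S4 -0.23 in covered ends. At S2, the far centromeric region became 0.11 within 1 Mb and 0.010 with a 20-kb mask, and the stretch from S2 to the promoter 0.084 with 5-kb anchor windows and 0.43 on non-blind ends. On non-blind ends the S2 and S4 regions became -0.013 and -0.15, and in covered ends the promoter region and the stretch to S4 0.065 and 0.018. At S4, the centromeric flank of S2 became -0.12 with 20-kb anchor windows and -0.10 on non-blind ends, the S4 region -0.038 with 20-kb anchor windows and the far centromeric region -0.54 within 250 kb. The promoter region became -0.069 in covered ends and -0.016 without the most covered ends, and the stretch from the promoter to S4 0.087 in covered ends.

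Bins, given by their start, changed sign mostly in covered ends. The limit of near-full coverage given above does not hold for all of them. At S2, 11 and 8 of 32 ends were covered in 139850001 (S4-S5 and S5 mutant), 12 and 10 of 37 in 139870001 and 2 and 3 of 17 in 139880001. At S4, 6 and 5 of 37 were covered in 139870001. At the promoter the bins that changed sign in covered ends were 139440001 (-0.25), 139500001 (-0.19), 139520001 (0.021) and 139580001 (-0.14). At S2 they were 139410001 (0.089), 139440001 (0.27), 139450001 (0.029), 139470001 (0.042), 139500001 (0.071), 139850001 (0.54), 139870001 (0.25) and 139880001 (-0.39). At S4 they were 139260001 (-0.050), 139350001 (0.11), 139470001 (0.070), 139590001 (0.070) and 139870001 (0.22). The bin holding S2 seen from S4 became 0.051 with TMM factors, 0.27 with capped ends, 0.47 on non-blind ends and 0.44 without the most covered ends. The promoter bin became 0.058 with capped ends and 0.32 without the most covered ends seen from S2, and -0.11 and -0.26 seen from S4. On non-blind ends, 138960001 at S2 became 0.50, 139430001 at S4 -0.15 and 139520001 at the promoter 0.14. Without the most covered ends, 139430001 at S4 became -0.12, 139520001 at the promoter 0.17 and 139590001 at S4 0.30. Depth limits the promoter viewpoint most, where the S5 mutant libraries had 176322 and 175946 near-cis reads.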

Other observations

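Most bins that passed at all 3 viewpoints did not move the same way from each. Higher and lower calls were 44 and 38 at the promoter, 44 and 42 at S2 and 42 and 44 at S4. With so even a split, some bins agree in sign without any link between viewpoints. Whether more agreed than that was not tested. Of 82 10-kb bins tested at each of them, 61 passed edgeR's test at all 3, of which 11 were higher in the S4-S5 mutant throughout, 9 were lower throughout and 41 differed in sign between viewpoints. Of the higher ones, the following pair held at least 1% of the S4-S5 mutant's reads from each viewpoint. That from 139370001, just centromeric of S2, took 1.15, 3.66 and 3.41% of reads from the promoter, S2 and S4 in the S4-S5 mutant, against 0.658, 3.27 and 2.56% in the S5 mutant. Likewise 139580001, telomeric of S4, took 1.46, 2.07 and 2.34% against 1.06, 1.82 and 1.62%. Among the lower ones, the bin from 139640001 took 0.230, 0.732 and 0.674% in the S4-S5 mutant, against 0.535, 1.18 and 1.24% in the S5 mutant, log2 fold changes of -1.22, -0.69 and -0.88. Both bins from 139670001 and 139710001 were lower from all 3 viewpoints as well, by log2 -0.84 to -1.37 and by log2 -0.66 to -2.51. The 3 viewpoints are separate amplifications; whether they share the ligated DNA of a genotype is not given in the labels.

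Of 45 1-Mb windows beyond 500 kb tested at all 3 viewpoints 32 passed edgeR's test at each. Of these, 3 were higher and 2 lower throughout, and 27 differed in sign between viewpoints, with the same limit as for the bins. The window from 137000001, next to the near-cis zone, took 6.71, 7.25 and 4.84% of the reads beyond 500 kb in the S4-S5 mutant, against 5.02, 3.13 and 3.17% in the S5 mutant. The window from 117000001 took 0.144, 0.217 and 0.335% in the S4-S5 mutant, against 1.26, 2.07 and 0.724% in the S5 mutant. Among windows with at least 1% of far reads in the higher genotype, the lowest fold change from S2 was that of the window from 71000001, with 438 and 483 reads in the S4-S5 mutant against 4785 and 4459 in the S5 mutant (log2 -3.93). From S4, the lowest was that of the window from 94000001, with 0.494 and 0.528% against 2.13 and 2.21% (-2.08), and the highest that from 134000001, with 4.00 and 4.09% against 1.78 and 1.76% (1.19). At these distances the genotypes share few covered ends, as given above.

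Many ends well covered in 1 genotype held a few reads in the other, and the share that did was highest at the most covered ends. At the promoter, of the near-cis ends with under 40 reads over both S5 mutant libraries, 53.4% had at least 1 S5 mutant read where the S4-S5 mutant had 40 to 200 reads, and 83.0% where it had 200 to 1000. In the other direction 48.7% and 58.3% had at least 1 S4-S5 mutant read. At S2, among near-cis ends with under 40 reads over both S5 mutant libraries, the median S5 mutant count was 1 where the S4-S5 mutant had 40 to 200 reads, 2 where it had 200 to 1000 and 8 where it had 1000 to 5000. At those highest ends 248 of 252 had at least 1 read in the S5 mutant. Likewise 74 of 75 such ends of the S5 mutant had at least 1 read in the S4-S5 mutant, with a median of 7. At S4 the medians were 7 reads in the S5 mutant at the highest S4-S5 mutant ends and 4 reads in the S4-S5 mutant at the highest S5 mutant ends. Where these low reads come from was not tested.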
